A study of Mus musculus with 3 samples.

Results

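The nuclei described here each carried transcripts of 2 or more of Pax9, Ccdc33 and 3 genes that go with them. They came from fibroblasts of the lumbar dorsal root ganglion (DRG), the cluster of sensory neurons beside the spinal cord. They were chosen by measured values. A barcode with more than 1000 detected genes was taken when it held 3 or more unique molecular identifiers (UMIs, tags that count captured transcripts) summed over Ccdc33, Pax9, Cldn1, Thbs4 and Svep1, from 2 or more of these genes. That sum also had to be at least 2 times the UMIs summed over 7 genes of other cells (Slc47a1, Slc26a7, Snap25, Scn9a, Prx, Bcan and Flt1). This gate kept 312 of 19259 nuclei, of which 194 came from the adult library, 79 from aged replicate 1 and 39 from aged replicate 2. Nuclear RNA was profiled with PIP-seq, which isolates single nuclei with barcoded beads in an emulsion, in DRG of L3 to L5 from C57BL/6 mice without any injury, transgene or drug named in the labels. The labels give all mice as male, whereas the study's methods list aged mice as female. Xist, the RNA made from the inactive X chromosome of female cells, was seen in 94.3%, 92.4% and 94.9% of the nuclei described here (2253, 1852 and 1919 CPM, defined below, in adult, aged replicate 1 and aged replicate 2), and 4 Y-linked genes summed to 31.3, 20.1 and 16.1 CPM. These values go against the label male in all 3 libraries, adult and aged alike. There was 1 library of adult mice (3 months) and there were 2 libraries of aged mice (21 months). How many mice went into a library is not stated, and since adult mice gave 1 library, age and the other ways in which it may differ from the aged libraries cannot be told apart.

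A ganglion is wrapped in layers of connective tissue, and fibroblasts of these layers differ by position. Outer cells deposit fibrillar collagen, whereas the inner sheath, the perineurium, is made of flattened fibroblast-related cells that sit on a basal lamina, seal their borders with tight junctions and carry glucose across the sheath through the transporter Slc2a1. In peripheral nerve, Schwann cells secrete desert hedgehog (Dhh), and mesenchymal cells of the sheath respond to it through the receptor Ptch1 and the transcription factor Gli1. Among the genes of the gate, Pax9 encodes a paired-box transcription factor of mesenchyme, Ccdc33 a coiled-coil protein, Cldn1 a claudin of tight junctions, Thbs4 a thrombospondin of the matrix and Svep1 a large secreted adhesion protein.

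The libraries held 167664164, 95647106 and 69045987 UMIs in the order adult, aged replicate 1 and aged replicate 2, and values of the 3 libraries are given in this order throughout. Kept nuclei had a median of 3269, 4317.5 and 4900 UMIs, and at most 1 kept barcode sequence was shared by any pair of libraries. The gated nuclei had a median of 2707.5, 4359 and 6284 UMIs and of 1626.5, 2275 and 2876 genes, so depth per nucleus moved with age in the gate. They summed to 606268, 398017 and 309994 UMIs. The deepest gated nucleus alone held 2.66%, 5.30% and 13.2% of these sums. Levels are given as CPM, the UMIs of a gene in the summed nuclei of a class and library, scaled to a common total as counts per 1e+06 UMIs.

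The 5 genes of the gate describe the choice and were not tested. Ccdc33 (chromosome 9, 58028677 to 58118823, minus strand, GRCm38) stood at 180, 211 and 187 CPM in the gated nuclei, and it was the most even of the 5 between libraries. Pax9 (chromosome 12, 56691767 to 56712822, plus strand) was listed at 529, 264 and 190 CPM, with the adult library the highest. Svep1 (chromosome 4, 58042442 to 58206859, minus strand) had the same order, at 782, 430 and 200 CPM. Cldn1 (chromosome 16, 26356642 to 26371841, minus strand) was at 332, 264 and 290 CPM. Thbs4 (chromosome 13, 92751590 to 92794818, minus strand) ran the other way, at 160, 229 and 284 CPM. In kept nuclei outside the gate none of the 5 exceeded 9.42 CPM in a library. That low level is in part set by the choice of nuclei.

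The makeup of the gate therefore differed between libraries. Svep1 was seen in 78.4%, 60.8% and 53.8% of gated nuclei, and Pax9 in 73.7%, 54.4% and 66.7%. Thbs4 was seen in 27.8%, 53.2% and 61.5%, and Ccdc33 in 34.5%, 50.6% and 51.3%. These shares were not thinned to a common depth, which also rose in this order. Most nuclei entered on few UMIs. The median sum over the 5 genes was 5, 6 and 7 UMIs, and 45.9%, 40.5% and 41.0% of gated nuclei held just 2 of the 5 genes. All 5 genes were seen together in 5 nuclei of each library. Neither Ccdc33 nor Pax9 was seen in 16.0%, 21.5% and 12.8%, which entered through the other 3 genes. Of the genes held against the gate, no UMI was present in 44.3%, 51.9% and 51.3% of gated nuclei.

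Nuclei at the border of the gate were described through genes that the gate did not use. In the adult library the 45 nuclei at the minimum of 3 UMIs had 2008 CPM of Dcn, a small matrix proteoglycan of fibroblasts, and the 37 just outside it, with 2 UMIs from 2 genes, had 2009 CPM. In aged replicate 1 the 12 nuclei just inside had 689 CPM and the 14 just outside 2547 CPM, and in aged replicate 2 the 6 inside had 2241 CPM and the 7 outside 4386 CPM. Itgb4, an integrin subunit of the perineurial list, was at 661, 1267 and 498 CPM just inside and at 847, 615 and 491 CPM just outside, in the order adult, aged replicate 1 and aged replicate 2. Nuclei with 3 or more UMIs from 1 gene alone (37, 16 and 9) had 2128, 1203 and 1659 CPM of Dcn and 323, 358 and 182 CPM of Itgb4. Barcodes that failed on the ratio to genes of other cells had 423, 238 and 657 CPM of Dcn and 1318, 920 and 819 CPM of the neuronal gene Syt1. Since that ratio uses the neuronal genes Snap25 and Scn9a, their Syt1 level is in part set by the rule.

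The fibroblast label was checked against marker lists. The 6 fibroblast markers (Pdgfra, Dcn, Col1a1, Col1a2, Col3a1 and Lum) summed to 4343, 3799 and 4110 CPM in the gated nuclei, against 158, 176 and 106 CPM in kept nuclei outside the 3 fibroblast gates. All of these but Dcn belong to the gates of the other fibroblasts, so their low level outside the fibroblast gates is in part set by the choice of nuclei. All 6 had a UMI in every library. The 8 perineurial markers summed to 1887, 2322 and 1761 CPM, and without Cldn1, which is part of the gate, to 1555, 2058 and 1471 CPM. In the fibroblasts chosen by Slc47a1 these 7 markers reached 211, 143 and 122 CPM, and in the remaining fibroblasts 276, 264 and 288 CPM. The perineurial sum was carried by Itgb4, Lmo7 and Slc2a1. Msln stood at 3.3, 22.6 and 0 CPM and Lypd2 at 61.0, 10.0 and 0 CPM, so that both were at 0 in aged replicate 2. Unlike the sum, Msln was lower in the gated nuclei than in the fibroblasts chosen by Slc47a1 (6.62-fold in the fit, log2 -2.73). The nuclei thus carried the defining genes of fibroblasts together with a part of the perineurial list, and they are named here by the genes of their gate.

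Markers of other cells were also summed, and the neuron, myelinating Schwann and lymphocyte lists were lower in both aged libraries. Snap25 and Scn9a (neuron), Prx (myelinating Schwann), Bcan (satellite glial) and Flt1 (endothelial) are held against the gate. The sums of their lists are thus in part set by the choice of nuclei. Neuron markers summed to 584, 307 and 232 CPM, and myelinating Schwann markers to 567, 226 and 161 CPM with Mag at 0 in both aged libraries. Satellite glial markers were at 173, 181 and 194 CPM, non-myelinating Schwann markers at 259, 374 and 332 CPM, mural markers at 125, 193 and 110 CPM, myeloid markers at 26.4, 32.7 and 25.8 CPM and lymphocyte markers at 92.4, 30.1 and 48.4 CPM. Measured by neuron genes (Rbfox3, Isl1, Prph and Syt1), free RNA from broken cells made up an estimated 16.6%, 7.81% and 3.76% of the gated UMIs. Since the gate limits neuronal UMIs, this estimate is in part set by the choice of nuclei too. The endothelial list summed to 229, 261 and 206 CPM, above the 101, 111 and 74.0 CPM of kept nuclei outside the fibroblast gates. It was carried by Cdh5, the cadherin of endothelial junctions, at 145, 186 and 197 CPM, with Cldn5 at 0 in all libraries, Egfl7 at 6.6, 7.54 and 0 CPM and Pecam1 at 70.9, 62.8 and 9.68 CPM. Cdh5 was seen in 29.9%, 50.6% and 41.0% of gated nuclei, against 4.93%, 6.02% and 3.67% of nuclei with neuron markers, which were deeper (median of 8553, 6694 and 8610 UMIs).

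The relative abundance of these nuclei was compared between ages. The gate held 1.68% of kept nuclei in the adult library (95% exact Clopper-Pearson interval 1.46 to 1.94%). The share was 1.54% (1.22 to 1.92%) in aged replicate 1, and aged replicate 2 had 1.49% (1.06 to 2.04%). The aged mean was 1.52% ± 0.0327 (SD, n = 2), 0.901 times the adult share, and the intervals of the 3 libraries overlapped. Exact permutation of the age labels over the libraries (two-sided) returned p = 0.333, the smallest value that 1 against 2 libraries can give. Intervals cover counting error only. Among the nuclei of the 3 fibroblast gates the shares were 20.3%, 21.0% and 19.4%, a ratio of 0.994. The direction depended on the setting. With 5 or more UMIs required in the gate the ratio was 1.11. With more than 2000 genes required, the shares were 0.940%, 1.77% and 1.96%, a ratio of 1.99 towards more in aged libraries, and when each nucleus was thinned to 1500 UMIs before the gate they were 0.899%, 0.577% and 0.585%, a ratio of 0.646. No direction of the share by age can therefore be given.

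**Figure D1:**
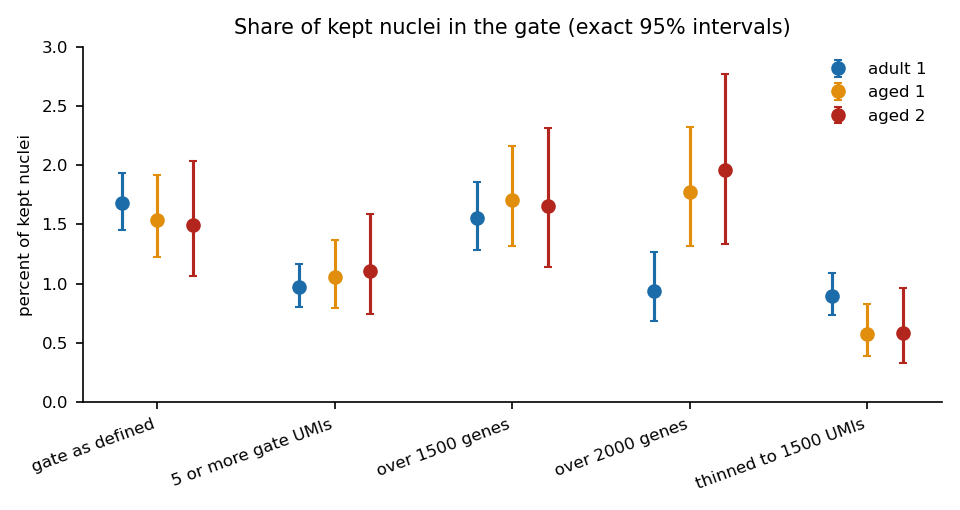
Share of kept nuclei that passed the gate (percent, vertical axis) in the adult and the 2 aged libraries, as points with exact 95% intervals, for the gate as defined and 4 other settings (horizontal axis). The 3 libraries sit at 1.68%, 1.54% and 1.49% with overlapping intervals, and the order of adult and aged libraries turns between the setting of over 2000 genes and that of 1500 UMIs.

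The gated nuclei were then compared with the fibroblasts chosen by Slc47a1, Slc26a7, Slc47a2 and Tspan11 (561 nuclei, called Slc47a1 nuclei below) and with the remaining fibroblasts chosen by Pdgfra and collagen genes (661 nuclei). UMIs were summed per class and library, and edgeR's quasi-likelihood test was fitted to the sums with the library as a block. A gene passed at a p under 0.05 after Benjamini-Hochberg adjustment. Against Slc47a1 nuclei, 1157 of 9943 tested genes passed (11.6%), of which 619 were higher (6.23%) and 538 lower (5.41%). Against the remaining nuclei 1138 passed (11.4%), of which 546 were higher (5.49%) and 592 lower (5.95%). Without aged replicate 1 the counts were 542 and 249, and without aged replicate 2 they were 684 and 710. Both comparisons use the same gated sums, and the 19 genes used in any gate were left out. The remaining nuclei carried Schwann markers to a greater extent than the gated ones, with 3672, 1721 and 988 CPM of the myelinating list, 1188, 2710 and 2504 CPM of the non-myelinating list and 786, 1830 and 1755 CPM of the satellite glial list. Their part in the differences was not tested. In Slc47a1 nuclei the same 3 lists were at 558, 203 and 122 CPM, 158, 121 and 87.4 CPM, and 294, 338 and 290 CPM. Kept nuclei outside the fibroblast gates had 1249, 1021 and 575 CPM of the myelinating list. Their non-myelinating and satellite glial lists were at 895, 1045 and 925 CPM and at 1098, 1043 and 905 CPM. The remaining nuclei were above these for both Schwann lists in every library, and for the satellite glial list in the aged libraries.

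The integrin receptor for basal lamina was higher in the gated nuclei than in either class. Itgb4, which pairs with Itga6 to form a laminin receptor of cells that sit on a basal lamina (chromosome 11, 115974709 to 116008412, plus strand), stood at 798, 1183 and 765 CPM, against 39.9, 55.0 and 38.5 CPM in Slc47a1 nuclei and 139, 178 and 218 CPM in the remaining ones. The gated level was above both in every library. The difference was 20-fold against Slc47a1 nuclei (log2 4.32 ± 0.24 SE, adjusted p = 6.1e-06) and 5.20-fold against the remaining ones (2.38 ± 0.20, adjusted p = 0.00012). Itgb4 was seen in 69.1%, 78.5% and 71.8% of gated nuclei and in 9.34%, 11.8% and 10.7% of the deeper nuclei with neuron markers. Its partner Itga6 was at 576, 407 and 394 CPM, against 20.2, 2.75 and 17.5 CPM in Slc47a1 nuclei (29.0-fold) and 147, 262 and 240 CPM in the remaining ones (2.15-fold). Lmo7, which encodes a LIM domain protein of cell junctions, was at 492, 698 and 529 CPM, with 38.7-fold and 11.6-fold differences.

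Of 25 tested genes of the basal lamina and its integrins, 16 were higher and 0 lower than in Slc47a1 nuclei (6.23% and 5.41% of all tested genes). The median log2 difference was 1.45 beside 0.01 over all tested genes. Against the remaining nuclei 4 were higher and 4 lower (5.49% and 5.95% of all), with a median of -0.06 beside -0.01. Col4a4, a chain of type IV collagen, was at 101, 161 and 145 CPM and passed in both comparisons (15.3-fold and 3.67-fold). Laminin Lama2 was at 1216, 1583 and 1777 CPM and was higher than in Slc47a1 nuclei (249, 322 and 496 CPM) but lay near the remaining ones (2356, 1786 and 1864 CPM, adjusted p = 0.35). The laminin chain Lamb1 was lower than in the remaining nuclei, at 8.25, 42.7 and 58.1 CPM against 153, 311 and 297 CPM. Lamb2 was higher than in either class, at 231, 241 and 184 CPM.

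Tight junction genes other than Cldn1, by which the nuclei were in part chosen, were tested singly and counted as a list. Of 13 tested members of the list, 6 were higher and 1 lower than in Slc47a1 nuclei (6.23% and 5.41% of all tested genes). Against the remaining nuclei 7 were higher and 2 lower (5.49% and 5.95% of all). The median log2 differences were 1.23 and 1.08, beside 0.01 and -0.01 over all tested genes. F11r, the junctional adhesion molecule A, was at 137, 166 and 190 CPM, against 16.6, 33.0 and 14.0 CPM in Slc47a1 nuclei (8.06-fold, adjusted p = 0.00029) and 29.1, 13.1 and 19.7 CPM in the remaining ones (7.92-fold, adjusted p = 0.00037). Occludin, Ocln, was at 39.6, 37.7 and 41.9 CPM, with differences of 6.29-fold and 7.77-fold. Cldn11, a claudin also known from myelin and testis, was at 206, 307 and 216 CPM (2.93-fold and 7.26-fold). The scaffold genes Tjp1 (701, 575 and 635 CPM), Cgnl1 and Magi1 passed in the same direction in both comparisons. The members that were lower were Jam3 in both comparisons and Cldn19, a claudin of myelinating Schwann cells, against the remaining nuclei.

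Barrier transporters were split. Slc2a1, the glucose transporter of blood-tissue barriers, was at 173, 126 and 148 CPM, against 9.82, 2.75 and 3.50 CPM in Slc47a1 nuclei (21.3-fold, adjusted p = 1e-05) and 27.1, 23.6 and 25 CPM in the remaining ones (5.91-fold, adjusted p = 0.00015). In every library the gated level was above that of both other classes. The sulfate transporter Slc13a4 was at 129, 80.4 and 80.6 CPM and was higher than in both classes. The efflux pump Abcb1a was at 162, 166 and 129 CPM, below Slc47a1 nuclei (613, 734 and 699 CPM) and above the remaining ones (52.2, 20.1 and 30.4 CPM). Abcc4 and Abcg2, pumps of the same family, had this order too. In all, 5 of 16 tested transporters were higher and 6 lower than in Slc47a1 nuclei (6.23% and 5.41% of all tested genes). Against the remaining nuclei 7 were higher and 1 lower (5.49% and 5.95% of all). The median log2 differences were 0.13 and 0.36.

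**Figure D2:**
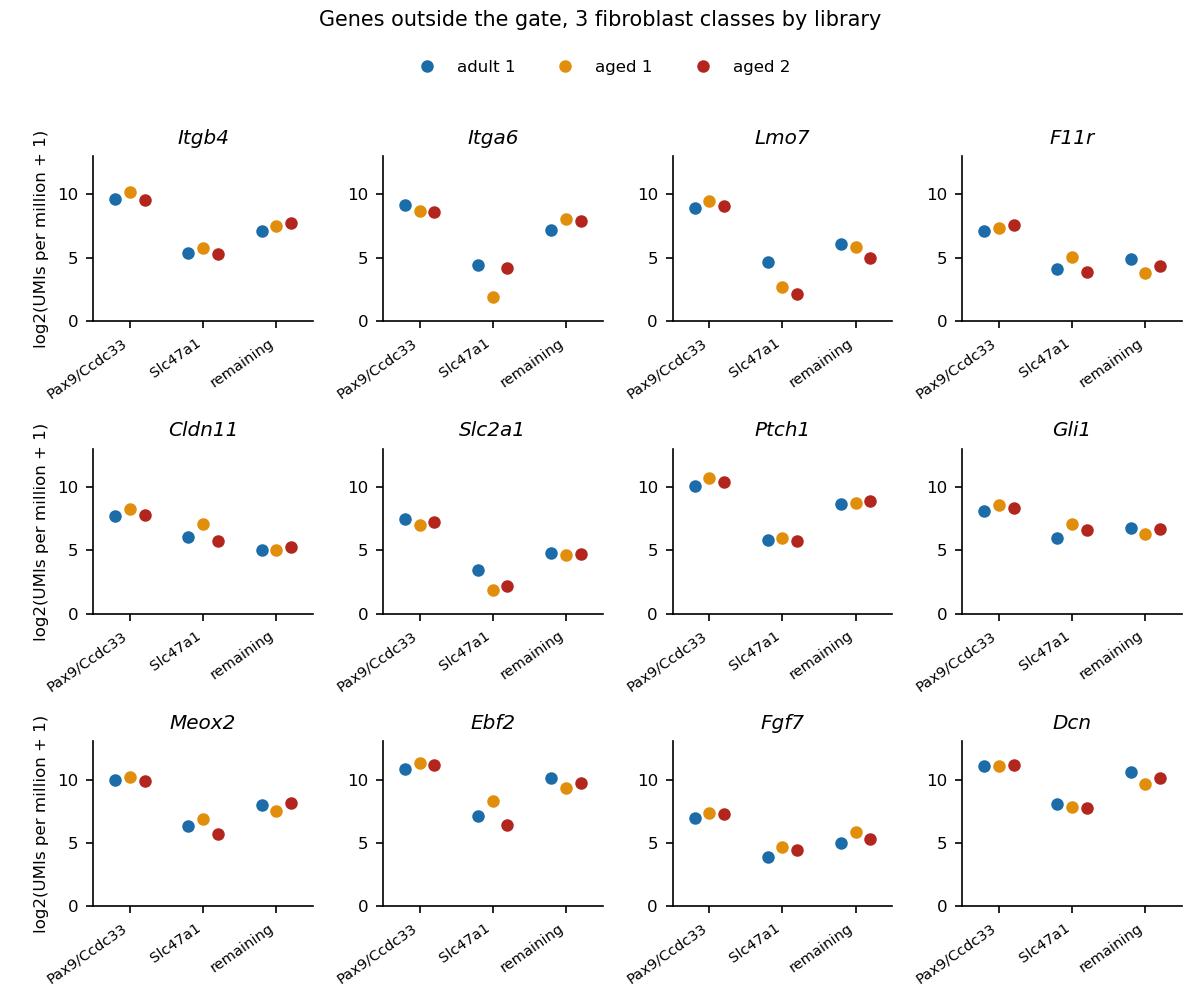
Level of 12 genes that no gate used, as log2(CPM + 1) on the vertical axis, in the gated, Slc47a1 and remaining fibroblast nuclei (horizontal axis), with 1 point per library. For Itgb4, Lmo7, F11r, Slc2a1, Ptch1 and Meox2 the 3 gated points lie above all points of the other classes. For Itgb4 they stand at 765 CPM or more against at most 55.0 and 218 CPM. The same holds for Itga6, Gli1, Ebf2, Fgf7 and Dcn. The 12 genes were chosen for display, and the share of all tested genes that separate in this way was not counted.

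Of the hedgehog pathway, Ptch1, Gli1 and Gli2 were higher in the gated nuclei than in both classes, and 4 genes whose products bind the ligand at the surface were lower than in Slc47a1 nuclei. Ptch1, the hedgehog receptor and itself a target of the pathway (chromosome 13, 63508328 to 63573598, minus strand), was at 1094, 1686 and 1329 CPM, against 57.1, 63.2 and 52.4 CPM in Slc47a1 nuclei (22.9-fold, log2 4.52 ± 0.22, adjusted p = 3e-06) and 406, 418 and 483 CPM in the remaining ones (3.16-fold, adjusted p = 0.00029). It was seen in 64.4%, 88.6% and 84.6% of gated nuclei. In nuclei with neuron markers that share was 39.2%, 34.6% and 39.6% before thinning, and at 1500 UMIs per nucleus the shares were 54.5%, 75.6% and 66.7% against 8.68%, 8.52% and 7.59%. Gli1, the transcription factor that marks an active pathway, was at 280, 372 and 326 CPM, against 63.8, 132 and 94.4 CPM (3.52-fold) and 108, 78.5 and 100 CPM (3.4-fold). Gli2, which activates targets, was at 275, 312 and 235 CPM and passed in both comparisons, while Gli3 and the signal transducer Smo passed in neither.

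The coreceptors Boc (206, 163 and 184 CPM), Cdon (80.8, 50.2 and 29.0 CPM) and Gas1 and the decoy receptor Hhip (111, 20.1 and 6.45 CPM) were lower than in Slc47a1 nuclei, where Cdon was at 494, 374 and 416 CPM. Boc and Hhip were higher than in the remaining nuclei. The ligand gene Dhh was at 3.3, 0 and 3.23 CPM in the gated nuclei, or 3 UMIs in all, and at 30.1, 71.5 and 37.5 CPM in the remaining ones, a ratio of 21.6 (counting interval 7.22 to 106). Of 13 tested genes of the pathway 4 were higher and 4 lower than in Slc47a1 nuclei (6.23% and 5.41% of all tested genes), with a median log2 of -0.14. Against the remaining nuclei 6 were higher and 1 lower (5.49% and 5.95% of all), with a median of 0.93.

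Transcription factors of mesenchyme differed in both directions from Slc47a1 nuclei and mostly in 1 direction from the remaining ones. Of 32 tested, 8 were higher and 11 lower than in Slc47a1 nuclei (6.23% and 5.41% of all tested genes), with a median log2 of -0.30. Against the remaining nuclei 16 were higher and 2 lower (5.49% and 5.95% of all), with a median of 0.86. Meox2, a homeobox factor of somite derivatives, was at 1021, 1203 and 952 CPM, against 81.0, 115 and 52.4 CPM in Slc47a1 nuclei (12.6-fold, adjusted p = 1.6e-05) and 248, 179 and 288 CPM in the remaining ones (4.50-fold). Ebf2, an early B-cell factor family member, was at 1823, 2482 and 2255 CPM, against 136, 322 and 83.9 CPM (12.8-fold) and 1135, 635 and 833 CPM (2.5-fold, adjusted p = 0.035). Tbx18 was at 36.3, 42.7 and 41.9 CPM and was held by Slc47a1 nuclei with 3 UMIs in all, a ratio of 30.1 (counting interval 9.73 to 151). In the remaining nuclei it was at 34.1, 38.4 and 34.0 CPM. Klf5 (539, 455 and 381 CPM), Bnc2, Foxd1 (254, 249 and 219 CPM) and Foxd2 were higher than in the remaining nuclei by 5.09-fold to 6.46-fold. Eya4, Tbx15 and Prrx1 were among those lower than in Slc47a1 nuclei, with Eya4 at 16.5, 25.1 and 12.9 CPM against 236, 214 and 322 CPM. Pax1, the closest relative of Pax9, had no UMI in the gated nuclei.

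In the fibrillar and interstitial matrix 8 of 31 tested genes were higher and 7 lower than in Slc47a1 nuclei (6.23% and 5.41% of all tested genes). Against the remaining nuclei 6 were higher and 7 lower (5.49% and 5.95% of all). The medians of the list were 0.07 and -0.09. Dcn was at 2197, 2131 and 2281 CPM, an even level over the libraries, against 266, 231 and 213 CPM in Slc47a1 nuclei (9.35-fold, adjusted p = 1e-05) and 1545, 792 and 1097 CPM in the remaining ones (2.01-fold, adjusted p = 0.0071). Ogn, Abi3bp, Vit and Tnxb were also higher in both comparisons. Elastin, Eln, was lower in both, at 54.4, 12.6 and 16.1 CPM against 422, 170 and 112 CPM and 117, 43.6 and 26.8 CPM. Col12a1 was lower than in Slc47a1 nuclei, at 114, 93.0 and 29.0 CPM against 699, 981 and 1276 CPM. Postn was lower than in the remaining nuclei, at 11.5, 12.6 and 3.23 CPM against 28.1, 183 and 123 CPM.

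Growth factors and other ligands that act on neighbouring cells formed a further group. Fgf7, a growth factor for epithelia, was at 122, 161 and 152 CPM, against 13.5, 24.7 and 21.0 CPM in Slc47a1 nuclei (7.68-fold, adjusted p = 2.8e-05) and 31.1, 56.7 and 39.3 CPM in the remaining ones (3.5-fold, adjusted p = 0.00042). Wnt6 (168, 186 and 135 CPM) was higher than in both classes, as was Fgf14, whose product acts inside the cell on sodium channels. Bmp4 and Rspo3, an amplifier of Wnt signals, were lower than in Slc47a1 nuclei, with Rspo3 at 8.25, 0 and 0 CPM against 615, 690 and 940 CPM. Of 34 tested, 9 were higher and 6 lower than in Slc47a1 nuclei (6.23% and 5.41% of all tested genes), and 8 were higher and 2 lower than in the remaining ones (5.49% and 5.95% of all). The medians over the list were below 0, at -0.29 and -0.04 on the log2 scale.

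Among ligands of axon guidance, 9 of 17 tested were higher and 3 lower than in Slc47a1 nuclei (6.23% and 5.41% of all tested genes). Against the remaining nuclei 7 were higher and 3 lower (5.49% and 5.95% of all). Netrin G1, Ntng1, a membrane-anchored netrin, was at 2113, 1364 and 877 CPM, against 209, 170 and 73.4 CPM (9.36-fold) and 224, 428 and 384 CPM (adjusted p = 0.0032). Ntn4, a netrin of basal laminae, and the repulsive guidance molecule Rgma (172, 209 and 245 CPM) were higher than in both classes, and Sema3d (241, 181 and 165 CPM) was higher than in the remaining nuclei by 5.83-fold. Sema3e was at 8.25, 7.54 and 3.23 CPM and was lower than in both. Of 15 tested complement and acute phase genes, 11 were higher and 0 lower than in Slc47a1 nuclei (6.23% and 5.41% of all tested genes), with a median log2 of 1.65. Against the remaining nuclei 6 were higher and 2 lower (5.49% and 5.95% of all), with a median of 0.94. C2, a protease of the classical pathway, was at 125, 214 and 142 CPM, against 11, 5.5 and 21.0 CPM and 26.1, 29.7 and 35.7 CPM. Lbp, which binds bacterial lipopolysaccharide, stood level over the libraries at 439, 452 and 426 CPM and was 4.26-fold higher than in the remaining nuclei.

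**Figure D3:**
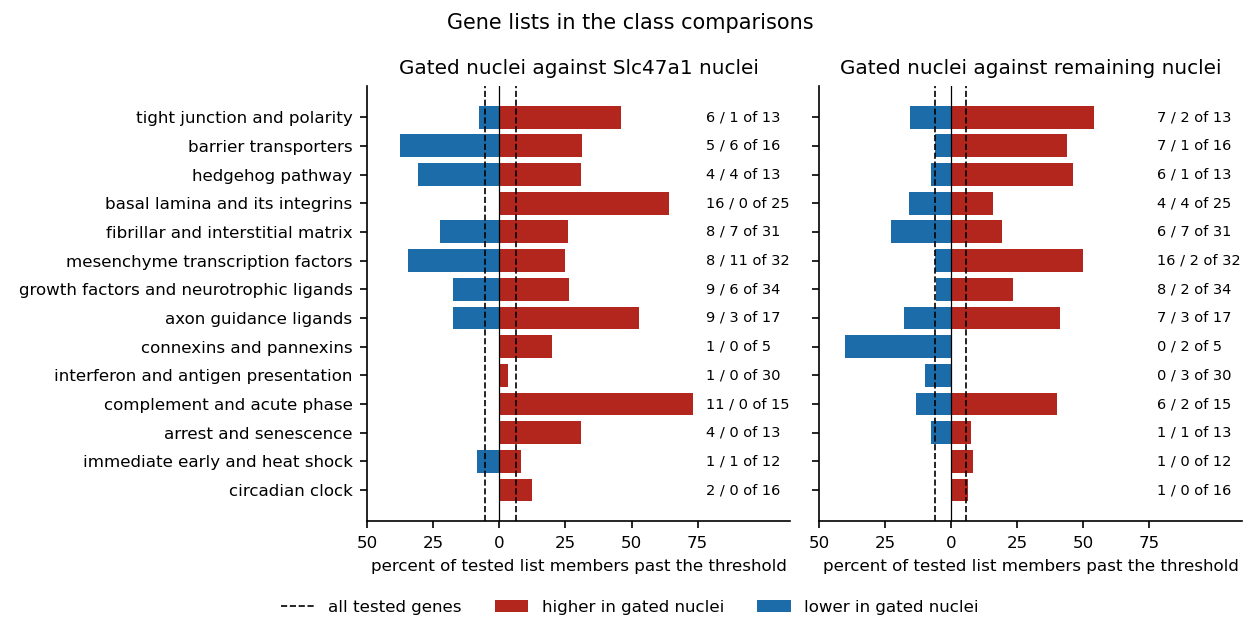
Percent of tested members (horizontal axis) of 14 gene lists (vertical axis) that were higher (right, red) or lower (left, blue) in the gated nuclei past the threshold, against Slc47a1 nuclei and against the remaining fibroblasts, with dashed lines at the share over all tested genes (6.23% and 5.41%, 5.49% and 5.95%). Bars for the basal lamina and complement lists reach 16 of 25 and 11 of 15 members on the left panel, and the transcription factor list reaches 16 of 32 on the right panel.

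The other lists concerned general states of the cell, and their counts stand beside 6.23% of all tested genes higher and 5.41% lower. Against Slc47a1 nuclei 1 of 5 connexins (Gja1, at 47.8, 65.3 and 83.9 CPM against 27.0, 30.2 and 17.5 CPM), 1 of 30 interferon genes (Gbp2), 4 of 13 arrest and senescence genes and 2 of 16 clock genes were higher and 0 were lower, and of 12 immediate early genes Hsph1 was higher and Klf2 lower. The senescence genes were Igfbp7, at 303, 550 and 584 CPM against 174, 154 and 126 CPM, and 3 genes of few UMIs, Ccl2 (25 gated UMIs against 3), Cdkn2a (35 against 3) and Cdkn2b (20 against 1). Of the gated UMIs of Cdkn2a, a cell cycle inhibitor like Cdkn2b, 3 came from the adult library and 32 from the aged ones. Against the remaining nuclei, where 5.49% of all tested genes were higher and 5.95% lower, 3 of 30 interferon and antigen presentation genes were lower, namely B2m (137, 123 and 129 CPM against 189, 434 and 277 CPM), H2-K1 and Parp14, and 0 were higher. Of 16 clock genes 1 was higher (Per3, at 612, 703 and 648 CPM against 371, 450 and 472 CPM) and 0 were lower. Of 13 arrest and senescence genes Igfbp7 was higher and Igfbp3 lower, of 12 immediate early and heat shock genes Hsph1 was higher, and of 5 connexins Gjc1 and Gjc3 were lower.

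The single genes with the largest differences outside these lists were named by a rule on size and on agreement of the 3 libraries. Tenm2, a teneurin of cell adhesion, was at 3959, 3573 and 3765 CPM, against 116, 173 and 10.5 CPM in Slc47a1 nuclei (39.1-fold) and 1751, 761 and 1153 CPM in the remaining ones. Casq2, a calcium-binding protein of the sarcoplasmic reticulum, was at 33.0, 85.4 and 71.0 CPM, and Slc47a1 nuclei held 2 UMIs of it. Col25a1 (29.7, 12.6 and 0 CPM) and the bicarbonate transporter Slc4a10 (84.1, 45.2 and 9.68 CPM) were lower than in Slc47a1 nuclei, where Slc4a10 reached 2789, 3518 and 4293 CPM. Vsx1 had no UMI in the gated nuclei and 60.7, 68.7 and 105 CPM in Slc47a1 nuclei, at least 29.6-fold more when 3 UMIs over the group are taken as the floor. Hs3st4 and Pla2g4f were also lower than in Slc47a1 nuclei, with 3 UMIs and 1 UMI in the gated nuclei, and Banf2 and Xkr7 were higher.

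Against the remaining nuclei, Bmp3 (99.0, 40.2 and 58.1 CPM against 5.02, 2.62 and 3.57 CPM, 16.8-fold) and the histamine receptor Hrh1 (37.9, 35.2 and 71.0 CPM, 12.6-fold) were higher, as were Egfl6, Slco4a1 and Zfp57. Plxnb3 had no UMI in the gated nuclei and was at least 25.6-fold higher in the remaining ones. The other genes lower in the gated nuclei by this rule were Sorcs1, P2ry12, Igfbp3, Nkain2 and Srpk3, with Nkain2 at 101, 70.3 and 12.9 CPM against 958, 2930 and 2559 CPM. The connexin gene Gjc3 of Schwann cells was also lower, at 8.25, 7.54 and 22.6 CPM against 89.3, 220 and 172 CPM, beside the Schwann markers of the remaining nuclei given above.

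Cdh5 was chosen after its values were seen, since it carried the endothelial list. It passed against Slc47a1 nuclei (49.7, 74.2 and 76.9 CPM, log2 1.43 ± 0.22, adjusted p = 0.0011) and against the remaining ones (36.1, 32.3 and 41.1 CPM, log2 2.28 ± 0.22, adjusted p = 0.00015). Pecam1 passed in neither comparison.

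The question of age was addressed within the gated nuclei, with 3 sums, 1 adult and 2 aged. In the edgeR test, in which the adult library is assumed to vary like the aged ones, 443 of 8926 tested genes passed (4.96%), 190 higher (2.13%) and 253 lower (2.83%) in aged nuclei. This count depended on the test. DESeq2 called 24 on the same sums. When, for each gene, the nucleus with most of its UMIs in a class and library was set to the value of the next nucleus, edgeR called 0, with 847 genes at an unadjusted p under 0.05, and its prior degrees of freedom were 3.71 in place of infinite. The cause of this change in the count was not tested. Of the 44 genes past the threshold that the text names by rule, 4 also passed in DESeq2 (Alk, Bc1, Igfbp5 and Vcan). Age values are therefore given as levels in each library, and the term "rose" or "fell" refers to the edgeR test. Numbers of nuclei with a UMI of a gene were not thinned to a common depth, which was greater in both aged libraries.

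Alk, a receptor tyrosine kinase (chromosome 17, 71868972 to 72604627, minus strand), was at 8.25, 196 and 155 CPM and rose by 4.31 on the log2 scale (± 0.55 SE, adjusted p = 5.1e-12, DESeq2 adjusted p = 0.0032). It was carried by 5 of 194 adult nuclei, 12 of 79 and 10 of 39. In Slc47a1 nuclei it was at 14.1, 41.2 and 21.0 CPM and in the remaining ones at 23.1, 84.6 and 64.3 CPM. Versican, Vcan, a large proteoglycan of loose matrix, was at 28.0, 146 and 268 CPM and rose by 2.79 (± 0.44, adjusted p = 9.9e-08), with 51.7% of its UMIs in 1 nucleus of aged replicate 1 and 41.0% in 1 nucleus of aged replicate 2. Fgf14 was at 574, 2889 and 1458 CPM and rose 3.63-fold, and it was seen in 88, 65 and 28 nuclei. Both aged libraries lay above the adult one for each of these genes.

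Bc1, a short noncoding RNA of neurons, was at 289, 7.54 and 3.23 CPM and fell by 5.67 (± 0.51, adjusted p = 7e-25). It had the same order in Slc47a1 nuclei (196, 2.75 and 0 CPM) and in the remaining ones (341, 5.23 and 3.57 CPM). Malat1, an abundant RNA retained in the nucleus, was at 47192, 20871 and 19397 CPM and fell by 1.29 (± 0.12, adjusted p = 1.9e-25), again with like values in Slc47a1 nuclei (53340, 22614 and 21915 CPM) and the remaining ones (51984, 18265 and 18224 CPM). The share of free RNA and the neuron, myelinating Schwann and lymphocyte lists given above moved in the same direction. With free RNA subtracted 360 genes passed by age, of which 292 were among the 443, and with nuclei thinned to 1500 UMIs 79 passed, of which 74 were among them. The part of free RNA and depth in single genes was not tested.

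Igfbp5, a secreted binding protein of insulin-like growth factors (chromosome 1, 72857932 to 72874884, minus strand), was at 1707, 60.3 and 54.8 CPM, and its fall by 4.94 (± 0.30, adjusted p = 4.3e-55) had the smallest p of the genes named. Of its 1035 adult UMIs, 776 (75%) lay in 1 nucleus of 14974 UMIs, and the next nucleus had 48. It was seen in 20.1%, 11.4% and 7.69% of gated nuclei. With the highest nucleus set to the next, the levels were 522, 52.7 and 10.5 CPM and the change was -4.00 (adjusted p = 0.40). In Slc47a1 nuclei Igfbp5 was at 1299, 1113 and 797 CPM and was seen in 69.1%, 66.2% and 75.9% of them, and the remaining nuclei had 851, 311 and 645 CPM.

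Of 15 tested complement and acute phase genes, 6 rose and 0 fell, beside 2.13% and 2.83% of all tested genes. Their median log2 change was 0.66 beside 0.04 over all tested genes. Apod, a lipid-binding lipocalin, was at 1669, 3271 and 4681 CPM (2.28-fold, adjusted p = 3.1e-06), and it was seen in 150 of 194, 68 of 79 and all 39 nuclei. Ceruloplasmin, Cp, a ferroxidase, was at 429, 1095 and 1077 CPM (2.42-fold). C4b was at 9.90, 52.8 and 90.3 CPM (6.65-fold), and C1s1, a protease of the classical pathway, at 39.6, 106 and 168 CPM (3.25-fold). C3 had 1 UMI in the adult nuclei and 50 in the aged ones, in 5 and 6 nuclei. Ptgds, the prostaglandin D2 synthase, was at 167, 377 and 1142 CPM, with 45.5% of its UMIs in aged replicate 2 in 1 nucleus. C3, C4b, C1s1 and Ptgds did not pass in DESeq2.

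**Figure D4:**
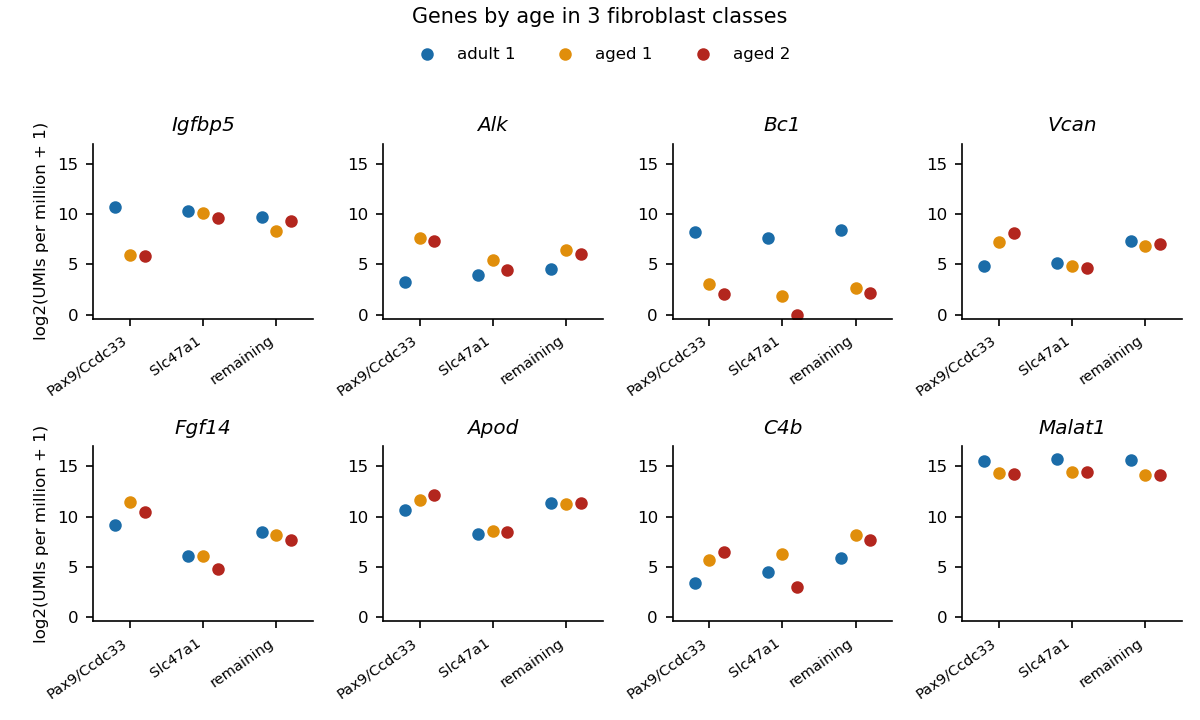
Level of 8 genes as log2(CPM + 1) on the vertical axis in the 3 fibroblast classes (horizontal axis), with 1 point per library. The gated points of Igfbp5 fall from 1707 to 60.3 and 54.8 CPM while those of Slc47a1 nuclei stay between 797 and 1299 CPM, and Bc1 and Malat1 are lower in the aged libraries of every class. Most of the Igfbp5 UMIs behind the adult gated point lay in 1 nucleus.

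Of the genes described in the class comparisons, some passed by age (Fgf14, Ntng1, Apod, Bnc2 and Hhip among them) and others did not. The adjusted p in edgeR was 0.82 for Itgb4, 0.80 for Lmo7, 0.72 for Slc2a1, 0.96 for Dcn, 0.50 for Ptch1 and 0.99 for Meox2. Of the tight junction list 1 of 12 tested rose (Jam2, at 31.3, 123 and 132 CPM) and 0 fell. Of the transporters Abca8a rose, and Slc38a2 (1386, 736 and 455 CPM) and Slc16a1 (142, 52.8 and 45.2 CPM), which carry amino acids and lactate, fell, out of 15. Of 12 hedgehog genes Hhip fell, from 111 to 20.1 and 6.45 CPM. Of 25 basal lamina genes Lamb1 and Col18a1 rose (medians of the 4 lists, 0.23, 0.17, 0.03 and 0.23). Over all tested genes 2.13% rose and 2.83% fell.

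The counts of each list stand beside 2.13% of all tested genes that rose and 2.83% that fell. In the fibrillar matrix 4 of 29 tested genes rose and 1 fell. Fn1, fibronectin, was at 185, 477 and 548 CPM (2.65-fold) and Col15a1 at 87.4, 121 and 410 CPM, while Eln fell from 54.4 to 12.6 and 16.1 CPM. Tnc was called although its 73 UMIs lay in 2 nuclei of aged replicate 1, with 0 in the other libraries. Among 31 transcription factors Bnc2 fell (4858, 2419 and 2300 CPM, 2.15-fold), as did Foxp1 (2214, 1312 and 1158 CPM) and Klf4, and Runx2 rose, with 64.6% of its UMIs in aged replicate 1 in 1 nucleus. Among 28 growth factors Fgf14, Il34 (74.2, 166 and 197 CPM) and Pdgfd rose and Fgf1 (345, 229 and 119 CPM) fell. Among 16 guidance ligands Ntn4 (195, 528 and 594 CPM), Slit3 (42.9, 153 and 184 CPM) and Efnb2 rose, and Ntng1 and Ntn1 fell.

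Of 11 arrest and senescence genes, Cdkn2a rose, with 3 UMIs in 2 of 194 adult nuclei against 32 UMIs in 9 of 79 and 11 of 39 aged ones, a ratio of 9.13 (counting interval 2.86 to 46.6), and Igfbp5 fell. The numbers of nuclei with Cdkn2a were not thinned to a common depth. Of 12 immediate early and heat shock genes Junb rose and Nr4a1, Jund and Hspa8 (465, 261 and 181 CPM) fell. Rora, at 1054, 1864 and 2029 CPM, rose among 15 clock genes. In the interferon and antigen presentation list 0 of 27 passed in edgeR or in DESeq2, with 5 at an unadjusted p under 0.05, beside 1237 of all 8926 tested genes, and a median log2 change of 0.35, and of 2 tested connexins neither passed, with 0 at an unadjusted p under 0.05. The other genes with the largest changes were Socs3, Xkr7, Corin and Rnf165, each with 1 UMI in the adult nuclei, and Hcn4, Zfp804a, Frmd5 and Fam131b, which fell. Fam131b was at 101, 12.6 and 0 CPM, and Slc47a1 nuclei had 87.1, 16.5 and 10.5 CPM. Of the UMIs of Corin in aged replicate 1, all 5 lay in 1 nucleus, as did 77.8% of those of Socs3 in aged replicate 2 and 65.7% of those of Zfp804a in the adult library.

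Whether an age difference was particular to the gated nuclei was tested as the difference between their change and the mean change of the other fibroblast classes. Of 9943 genes, 17 passed (0.171%), with 12 towards a greater rise in the gated nuclei and 5 towards a greater fall, and 676 had an unadjusted p under 0.05. DESeq2 called 2. The difference of log2 changes was 2.39 ± 0.31 for Fgf14 (adjusted p = 0.0016), which was at 67.5, 68.7 and 28.0 CPM in Slc47a1 nuclei and 347, 292 and 211 CPM in the remaining ones. It also passed with the highest nucleus set to the next (adjusted p = 0.0042). Vcan differed by 3.21 ± 0.49, and was at 33.7, 27.5 and 24.5 CPM in Slc47a1 nuclei and 158, 113 and 132 CPM in the remaining ones. No gene of the tight junction, hedgehog, basal lamina, transcription factor, complement, connexin, interferon, immediate early or clock lists passed this test in edgeR or in DESeq2. At an unadjusted p under 0.05 there were, in this order, 1 of 13, 0 of 13, 2 of 25 and 3 of 32. The complement, connexin and interferon lists had 4 of 15, 0 of 5 and 2 of 30. The immediate early and clock lists had 2 of 12 and 1 of 16, beside 676 of all 9943 tested genes.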

How the data were processed

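Nuclei of lumbar DRG were captured by the authors with PIP-seq, and reads were aligned and transcripts counted with the Pipseeker software. The submitters' processing notes name mm10; the annotation and the use of strand are not given in the sources used here. The authors deposited unnormalized UMI counts for 32227 genes, over 4880733 barcodes (adult), 1315480 (aged replicate 1) and 1229208 (aged replicate 2), so that empty barcodes are included. Ages were taken from the sample labels, which differ from the series' design text in the age of the aged mice. Barcodes with more than 1000 genes were kept, which left 53.8%, 58.4% and 54.5% of all UMIs. No doublet caller was run, and leaving out the top 10% of kept nuclei by UMIs, meant as a check on doublets, removed none of the 312 gated nuclei and so does not bear on them. Positions (GRCm38) were looked up by identifier in GENCODE M21, which held 456 of 457 genes.

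Nuclei are not replicates, so counts were summed per class and library. The sums were tested with edgeR 4.0.16 (quasi-likelihood test, TMM, filterByExpr, prior count 0.125) under R 4.3.3, with DESeq2 1.42.0 as an alternative. The study's own comparison of nuclei was not used. Class comparisons used 9 sums with the library as a block. The age fit had 3 sums and 1 residual degree of freedom. P-values of the class comparisons measure the spread that is left between the sums once class and library are fitted. In the age fit the prior degrees of freedom were infinite. Its p-values therefore rest on a spread shared by genes of like level, not on that of each gene. The animals of each library are not stated. Genes used in any gate were not tested, and a gene that goes with the gate genes from nucleus to nucleus differs in part by the choice of nuclei. Fold changes are those of the fit, and folds of genes with 1 to 3 UMIs in a group are ratios with exact counting intervals at 95%. Named genes were the 6 with the largest change in each direction (4 for the difference between classes) past the threshold, with 30 or more UMIs and the same direction in every library, without predicted genes, and up to 4 per list. Genes given beyond these from the lists, the marker lists or the gate are named as such or were chosen after their values were seen. The members, the lists and the tests were chosen with earlier results of these data known. Free RNA was read from barcodes of at most 100 UMIs. On simulated counts for the age comparison (8653 genes), 25.3% of genes changed 2-fold and 77.7% of those changed 4-fold were recovered. The changed genes had 30 or more gated UMIs. The sums were drawn with 1 fixed dispersion and without single nuclei that hold most UMIs of a gene, so recovery in the measured sums may differ. Some genes are not reported here.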

Additional observations from a re-analysis of the deposited data

Results flagged for a closer look

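The change with age differed between the gated nuclei and the other fibroblasts for 17 genes, by a test of the difference itself in edgeR. Values are differences of log2 changes, positive where the gated nuclei rose more. The differences were -4.92 for Frmd5, -4.19 for Igfbp5, -3.40 for Tenm1, -2.30 for Xkr4 and -2.12 for Fam78b. They were 1.60 for Tsc22d1, 1.69 for Abca8a, 1.85 for Lsamp, 2.27 for Stox2, 2.28 for Slit3 and 2.31 for Tmtc2. They were 2.39 for Fgf14, 2.48 for Sned1, 2.5 for Enpp2, 2.63 for Kcnip4, 3.18 for Chrm3 and 3.21 for Vcan. Of the 11 of these that the text names by rule, Igfbp5 also passed in DESeq2, and 5 also passed with the highest nucleus of each gene set to the next (Vcan, Kcnip4, Frmd5, Xkr4 and Fgf14). Igfbp5 was not among these 5.

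The levels behind them took different forms. Tenm1 was at 29.7, 20.1 and 9.68 CPM in the gated nuclei while Slc47a1 nuclei had 16.6, 113 and 122 CPM and the remaining ones 29.1, 126 and 143 CPM. Xkr4 was at 94.0, 45.2 and 61.3 CPM in the gated nuclei, and at 143, 671 and 588 CPM in the remaining ones and 116, 209 and 210 CPM in Slc47a1 nuclei. In the remaining nuclei non-myelinating Schwann markers (1188, 2710 and 2504 CPM) and satellite glial markers (786, 1830 and 1755 CPM) were higher in both aged libraries, as were Tenm1, Xkr4 and Frmd5. Myelinating Schwann markers there (3672, 1721 and 988 CPM) were lower in both, as was Kcnip4. The part of these markers in the differences was not tested. Frmd5 was at 82.5, 2.51 and 6.45 CPM against 85.3, 176 and 238 CPM in the remaining nuclei and 70.0, 107 and 48.9 CPM in Slc47a1 nuclei. Kcnip4, a potassium channel interacting protein, was at 289, 530 and 700 CPM, while the remaining nuclei had 728, 110 and 96.5 CPM and Slc47a1 nuclei 117, 165 and 38.5 CPM. Enpp2, the autotaxin gene, was at 102, 141 and 281 CPM against 93.3, 16.5 and 21.0 CPM in Slc47a1 nuclei and 202, 130 and 122 CPM in the remaining ones. Chrm3, a muscarinic receptor, was at 36.3, 148 and 329 CPM and was seen in 13, 7 and 11 gated nuclei. Slc47a1 nuclei had 36.2, 22.0 and 31.5 CPM of Chrm3 and the remaining ones 223, 173 and 122 CPM.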

How the results depend on the processing

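The share of nuclei kept its direction (aged to adult ratio 0.901) with a UMI of Ccdc33 or Pax9 required and after thinning. It turned with more than 1500 genes (1.08), more than 2000 genes (1.99) and 5 or more UMIs in the gate (1.11). Leaving out an aged library gave 0.887 to 0.914. The count of genes by age (443) became 24 in DESeq2, 79 after thinning to 1500 UMIs and 0 with the highest nucleus of each gene set to the next, and lay between 304 and 443 under the other settings. The count against Slc47a1 nuclei (1157) became 721 after thinning, and leaving out a library gave 542 to 1237 (542 without aged replicate 1, 684 without aged replicate 2). The count against the remaining nuclei (1138) became 664 after thinning, and leaving out a library gave 249 to 1359 (249 without aged replicate 1, 710 without aged replicate 2). Without aged replicate 1, 45 of 56 named genes against Slc47a1 nuclei and 22 of 55 against the remaining ones passed. Without the library as a block the counts were 942 and 832. Thinning and leaving out libraries also leave fewer genes or sums to test. The cause of the other shifts was not tested. The difference of age changes (17) became 83 with no filter, 2 in DESeq2, 49 with 5 or more UMIs in the gate, 7 with a UMI of Ccdc33 or Pax9, 7 with more than 2000 genes and 30 without the deepest nucleus. Named genes that had passed kept their sign wherever a setting gave them a value, which after thinning held for 30 of 44 by age, 42 of 56 against Slc47a1 nuclei and 38 of 55 against the remaining ones. Of all genes called by age, 415 of 417 kept their sign with free RNA subtracted and 322 of 323 after thinning. The settings of free RNA, the deepest nucleus and the highest nucleus were chosen after seeing the data. Age counts without a library were not run, since no residual degree of freedom is left. No paired analysis was run, since the labels do not pair the adult library with an aged one.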
